A study of Homo sapiens with 36 samples.

Results

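Libraries labelled as sunitinib-resistant A498 cells were compared with libraries of parental A498 cells, matched by the antibody that both had received. A498 is an established human line of clear cell renal cell carcinoma, and sunitinib inhibits the receptors of VEGF, PDGF and several related ligands. The comparison holds 18 of the 36 libraries of the series, 9 per state, with 3 each under atezolizumab, avelumab and durvalumab, antibodies that bind PD-L1. The other 18 libraries are the same design in 786-O, a second clear cell line. Per the labels, A498 cells grew stably at 2 µM sunitinib and 786-O cells at 4 µM, after stepwise exposure of the whole culture. No cloning is described. Every library, parental ones included, came from cells exposed to an antibody for 24 h, at a dose that the labels write as 10 mg/mL. Untreated libraries were not analysed here, so no value is a response to an antibody. The deposited profiles went against the label of the resistant set, which is therefore called the labelled-resistant set throughout.

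Clear cell carcinoma arises from renal tubule epithelium and usually loses VHL, the protein that marks the alpha subunits of hypoxia-inducible factors for destruction when oxygen is present. The factors then stay active and drive genes of angiogenesis, glucose uptake and matrix remodelling. Sunitinib acts on the receptors at the far end of this pathway, and resistance in cultured lines has been studied through other receptor kinases, drug export, antioxidant metabolism and changes of epithelial state. The lists of genes described here follow these themes.

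Total counts per library ran from 19994882 to 37219906 in the labelled-resistant set and from 26160910 to 49099068 in A498 parental. Each of the 4 states carries 1 batch label of its own, so state and batch cannot be told apart. Mitochondrial genes took 1.37 to 2.11% of counts in the labelled-resistant set and 2.46 to 2.97% in A498 parental, and ribosomal protein genes 3.31 to 3.62% and 4.08 to 4.39%. The part of these gaps in the results was not tested. The labels do not tie the 3 libraries of a group to separate cultures, and p-values then cover only the spread among those libraries, which may be technical. In bulk RNA, fewer cells of a type and less RNA per cell cannot be told apart. PAX8, a renal tubule marker and transcription factor of the kidney lineage, was present in both states, with 208 to 237 CPM (counts per gene scaled to the total of the library) in the labelled-resistant set and 214 to 250 in A498 parental. The 12 genes of the leukocyte list, which also holds the haemoglobin gene HBB, were summed. They reached 1.06 to 1.53 CPM in the labelled-resistant set and 4.24 to 4.87 CPM in A498 parental. The part of these markers in the results was not tested. MS4A1 was at 0 in every library of both states, CD3E and CD3D in those of A498 parental, and HBB in those of the labelled-resistant set. The 8 endothelial markers summed to 0.677 to 1.24 against 2.16 to 3.02 CPM, with EMCN at 0 in the labelled-resistant set. The 10 fibroblast markers summed to 26.3 to 30 against 50.9 to 62.3 CPM, with COL3A1 and PDPN at 0 in A498 parental. Of the 4 fibroblast markers tested, 3 were at least 2-fold higher in the labelled-resistant set and 1 was at least 2-fold lower. The lower sum thus did not give the direction of most tested members.

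The line label was checked with genes chosen on the other 3 states only, so that the labelled-resistant libraries played no part in the choice. A498-restricted genes had a mean of at least 5 CPM in A498 parental and less than 0.5 CPM in every library of both 786-O states. There were 142 of them, and 114 (80.3%) lay under 0.5 CPM in all 9 labelled-resistant libraries. With limits of 10 and 0.1 CPM in place of 5 and 0.5, the class held 28 genes, of which 10 (35.7%) lay under the lower limit in all 9. None of the 142 reached a mean of 5 CPM there. Their median level was 0.0927 CPM, or 0.632% of the A498 parental level. The opposite class, high in both 786-O states and low in A498 parental, held 91 genes, of which 87 (95.6%) had a mean of at least 5 CPM in the labelled-resistant set. Their median level was 16.6 CPM, 116% of the 786-O level.

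Summed over the 142 A498-restricted genes, CPM ran from 22.2 to 32.4 in the labelled-resistant set. The same sum ran from 2915 to 3204 in A498 parental, from 12 to 14.6 in 786-O resistant and from 8.72 to 10.9 in 786-O parental. The labelled-resistant libraries were thus near both 786-O states and about 2 orders of magnitude under A498 parental, although all 9 lay above every 786-O library. KCTD15, of the potassium channel tetramerisation domain family, is 1 of these genes and averaged 81.6 CPM in A498 parental and 0.116 CPM in the labelled-resistant set. ADD2, a membrane skeleton adducin, averaged 79.6 and 0.163 CPM, and CHFR, a mitotic checkpoint ubiquitin ligase, 40.5 and 0.182 CPM. Of the 28 genes outside the 114, which reached 0.5 CPM in at least 1 labelled-resistant library, 1 reached 5 CPM in a library. In all, 4 genes of the class were at 0.5 CPM or more in all 9 labelled-resistant libraries: CPNE7 (mean 0.856 CPM), LINC00942 (0.707 CPM), TMTC1 (0.690 CPM) and SLC16A9 (0.675 CPM).

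The 786-O-restricted genes summed to 2929 to 3053 CPM in the labelled-resistant set and 7.85 to 9.92 CPM in A498 parental. In 786-O resistant and 786-O parental the sums were 2847 to 2968 and 2646 to 2764 CPM. RAB34, a small GTPase of primary cilia, averaged 153 CPM in the labelled-resistant set, 0.217 in A498 parental, and 150.2 and 142 in resistant and parental 786-O. SLFN11, which blocks stressed replication forks, averaged 94.3 CPM in the labelled-resistant set and 0.204 in A498 parental. Most of the A498-restricted genes were thus under 0.5 CPM in the labelled-resistant set, and most of the 786-O-restricted ones averaged at least 5 CPM. Since the whole group is in doubt, no result can be given without the doubted libraries. Each difference from A498 parental that follows is a difference between 2 labelled sets and can hold line, batch and sunitinib selection together.

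**Figure D1:**
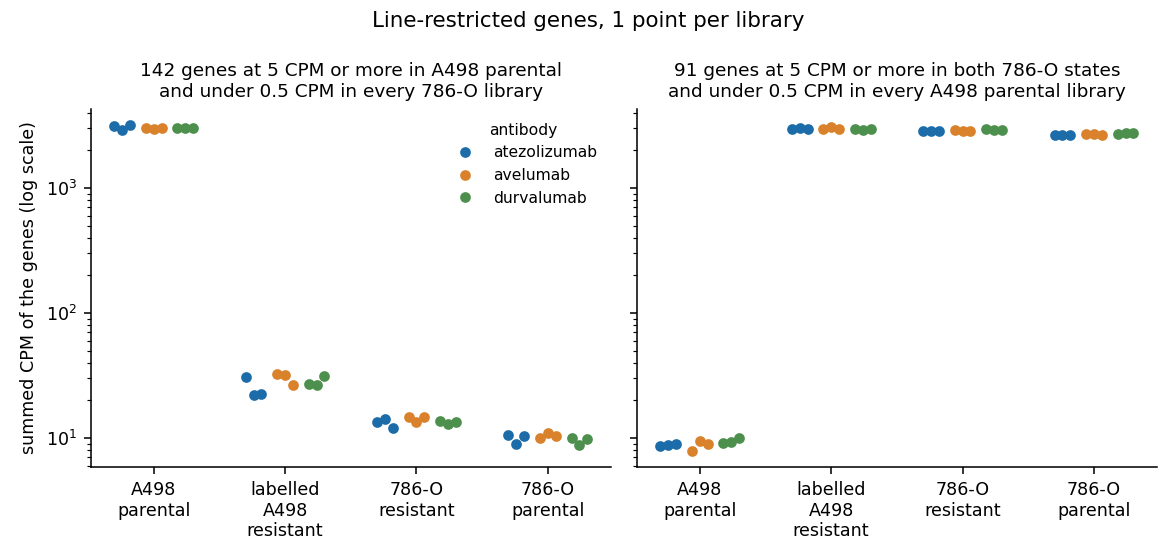
Summed CPM (log axis) of the 142 A498-restricted genes and of the 91 786-O-restricted genes in each library of the 4 states, with colour for the antibody. The 9 labelled-resistant libraries lie near the 786-O libraries and far from A498 parental in both panels, at 22.2 to 32.4 CPM for A498-restricted and 2929 to 3053 CPM for 786-O-restricted genes.

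Distances to each state were also counted in 1 fit of all 36 libraries, with 20752 genes tested. A 2-fold call is an adjusted p under 0.05 with a log2 difference of at least 1 in size. Against A498 parental the labelled-resistant set had 6774 such calls (32.6%), against 786-O parental 4338 (20.9%), and against 786-O resistant 1277 (6.15%). These comparisons share the labelled-resistant libraries.

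Within the 18 libraries labelled A498, 19458 genes were tested and 17155 (88.2%) passed the adjusted threshold. Of those tested, 2923 (15.0%) were higher in the labelled-resistant set as 2-fold calls and 3262 (16.8%) were lower. The median log2 difference over all genes was 0.01. Differences of at least 10-fold that passed the threshold numbered 663 higher (3.41%) and 892 lower (4.58%). Of the 6185 2-fold calls, 5679 (29.2% of the genes tested) had no overlap in CPM between the 9 libraries of each state. A 2-fold call of 1 sign under each antibody separately was made for 5282 genes (27.1%). Among 2-fold calls, the median range of the log2 difference over the 3 antibodies was 0.35. Protein-coding genes accounted for 4081 of the calls.

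**Figure D2:**
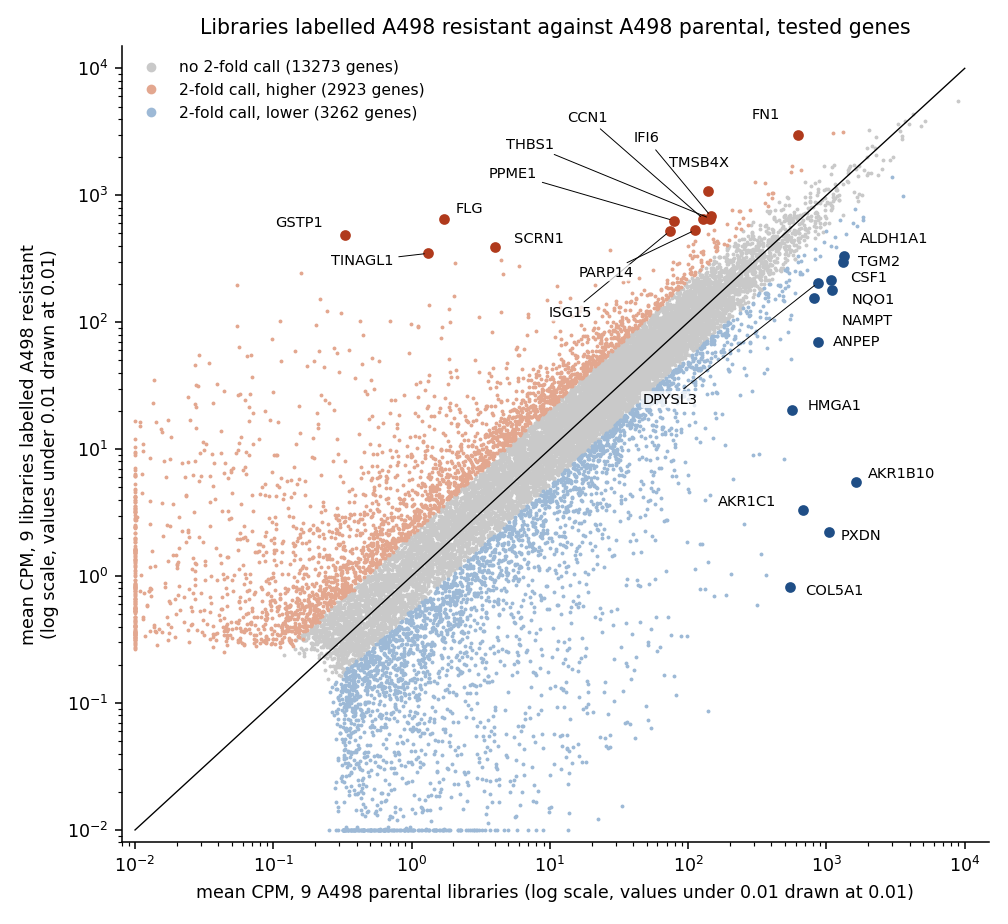
Mean CPM of each tested gene in the labelled-resistant set (vertical) against A498 parental (horizontal), both axes logarithmic, with 2-fold calls coloured by direction and 24 genes named. The cloud of 13273 genes without a call follows the diagonal, and the 2923 higher and 3262 lower calls spread to both sides of it.

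The genes named next had the largest gain or loss in mean CPM among those that differed at least 4-fold, passed under every antibody and did not overlap between the states. FN1 (chromosome 2, 215360440 to 215436172 on GRCh38), the gene of fibronectin, had 521 CPM at the lowest, 634 at the median and 695 at the highest in A498 parental. In the labelled-resistant set it had 2742, 2914 and 3393 CPM. It was the largest gain, with a log2 difference of 2.18 ± 0.0633 (SE, adjusted p = 3.04e-13). Other secreted matrix-associated proteins were higher as well. CCN1, a matricellular protein, had 607, 652 and 680 CPM (lowest, median and highest) against 102, 133 and 161 CPM in A498 parental. THBS1, thrombospondin-1, had 606, 652 and 712 CPM against 124, 146 and 155 CPM. TINAGL1, a tubulointerstitial nephritis antigen-like matrix protein, had 327, 349.9 and 371 CPM against 0.935, 1.41 and 1.67 CPM. The rule that chose these genes required that the states not overlap. In 786-O resistant and 786-O parental FN1 averaged 2144 and 6643 CPM, and CCN1 880 and 592 CPM. THBS1 averaged 619 and 577 CPM there, and TINAGL1 406 and 102 CPM.

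FLG (chromosome 1, 152302175 to 152325203), the gene of filaggrin, a keratin-bundling protein best known from skin, had 544, 651 and 767 CPM in the labelled-resistant set and 1.21, 1.79 and 2.32 CPM in A498 parental. Its log2 difference was 8.5 ± 0.0951 (adjusted p = 3.25e-18), and a neighbour overlaps 5.5% of its exons. GSTP1, the pi-class glutathione transferase, had 468, 493 and 512 CPM against 0.147, 0.346 and 0.501 CPM. SCRN1, secernin-1, had 378, 392 and 399 CPM against 3.61, 3.87 and 4.47 CPM. In these genes transcripts were abundant in 1 set of libraries and nearly absent from the other. In 786-O resistant and 786-O parental GSTP1 averaged 470 and 348 CPM, SCRN1 430 and 216 CPM and FLG 123 and 93.7 CPM. PPME1, the methylesterase of protein phosphatase 2A, had 590.0, 633 and 653 CPM against 70.9, 78.4 and 84.6 CPM. TMSB4X, which sequesters actin monomers, had 1041, 1087 and 1136 CPM against 129, 139 and 146 CPM. Both were well expressed in A498 parental and higher again in every labelled-resistant library. The remaining 3 of the 12 largest gains, IFI6, ISG15 and PARP14, are interferon-induced genes with log2 differences of 2.15, 2.75 and 2.16.

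On the other side, AKR1B10 (chromosome 7, 134527592 to 134541408), an aldo-keto reductase that detoxifies aldehydes, had 1453, 1549 and 2030 CPM in A498 parental. In the labelled-resistant set it had 4.80, 5.37 and 6.33 CPM. It was the largest loss, with a log2 difference of -8.30 ± 0.0537 (adjusted p = 2.64e-30). PXDN (chromosome 2, 1631887 to 1744852), peroxidasin, which forms sulfilimine crosslinks in collagen IV, had 984, 1042 and 1096 CPM in A498 parental and 1.68, 2.22 and 2.82 CPM in the labelled-resistant set. COL5A1 (chromosome 9, 134641774 to 134844843), a fibrillar collagen chain, had 485, 553 and 589 CPM against 0.627, 0.845 and 0.979 CPM, a log2 difference of -9.47 ± 0.0517 (adjusted p = 5.77e-53). These abundant A498 parental transcripts were near zero in all 9 labelled-resistant libraries. In 786-O resistant and 786-O parental AKR1B10 averaged 1.47 and 6.05 CPM, PXDN 1.98 and 26.6 CPM, and COL5A1 0.656 and 0.518 CPM. AKR1C1, a steroid and aldehyde reductase, had 604, 669 and 801 CPM against 2.46, 3.37 and 4.27 CPM, and reads may be shared with near copies in its family. HMGA1, a chromatin architectural protein, had 502, 581 and 602 CPM against 16.9, 20.5 and 22.7 CPM. ANPEP, aminopeptidase N of the proximal tubule brush border, had 771, 885 and 948 CPM against 64.8, 69.9 and 74.4 CPM.

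Other losses were of genes that stayed well expressed in both states. TGM2, a protein-crosslinking transglutaminase, fell from a median of 1326 CPM to 300.0 CPM, and ALDH1A1, a retinaldehyde dehydrogenase, from 1255 to 329 CPM. CSF1, the macrophage growth factor, fell from 1099 to 212 CPM and NAMPT, the rate-limiting enzyme of NAD salvage, from 821 to 155 CPM. DPYSL3, a cytoskeletal regulator, fell from 869 to 202 CPM. NQO1, a quinone reductase, fell from 1084 to 181 CPM, with 17.7% of its exons overlapped by a neighbour. The log2 differences of these genes ran from -2.70 (NQO1) to -2.09 (ALDH1A1). The naming rule required a difference of at least 2 in size and no overlap between the states.

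Basement membrane and collagen genes split, with 6 of 31 tested members higher and 12 lower as 2-fold calls and a median log2 difference of -0.24. These were 19.4% and 38.7% of the members. The shares over all genes, 15.0% higher and 16.8% lower, are to be set beside every list count that follows. Among laminins, LAMB3, a beta chain, had 54.8, 60.3 and 65.2 CPM in the labelled-resistant set and 189, 198 and 213 CPM in A498 parental (log2 difference -1.82 ± 0.0280, adjusted p = 4.62e-38). LAMA5 had 79.4, 85.9 and 89.2 CPM against 421, 553 and 593 CPM. Both laminin chains were lower in every labelled-resistant library. NID1, nidogen, which joins laminin to collagen IV, had 0.725, 0.996 and 1.35 CPM against 181, 204 and 216 CPM. LAMA4 had 0 to 0.272 CPM against 12.6 to 14.3 CPM. COL4A1, a main collagen IV chain, passed the adjusted threshold below the 2-fold limit, with 812 to 889.6 CPM against 508 to 567 CPM (log2 difference 0.55).

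Epithelial genes also moved both ways, with 6 of 19 tested members higher, 9 lower and a median log2 difference of -0.97. CDH1, E-cadherin, had 1.65, 1.95 and 2.74 CPM in the labelled-resistant set and 0.0326, 0.142 and 0.264 CPM in A498 parental. KRT19, a simple epithelial keratin, had 69.0, 72.8 and 76.9 CPM against 10.3, 11.9 and 13.0 CPM. The desmosomal genes DSP and JUP went down: DSP had 15.7, 17.3 and 18.9 CPM against 38.7, 48.3 and 54.0 CPM, and JUP fell by 1.95 on the log2 scale. MUC1, a membrane mucin, fell by 2.05 on the log2 scale, while KRT8 (-1.15) and KRT18 (-1.51) have many near copies that make their values uncertain. Of 17 tested mesenchymal genes, 7 were higher and 5 lower, with a median log2 difference of 0.06. SNAI1 and SNAI2, which encode related repressors of E-cadherin, went in opposite directions. SNAI1 had 4.74, 5.70 and 6.39 CPM against 43.0, 45.4 and 47.2 CPM, and SNAI2 34.8, 35.2 and 38.5 CPM against 7.96, 8.45 and 9.54 CPM. ZEB1, a repressor of the same programme, had a log2 difference of 0.06 (adjusted p = 0.0945). Cadherin-11, the product of CDH11, had 0.509 to 1.20 CPM of transcript against 14.4 to 17.7 CPM, and POSTN, periostin, 0 to 0.193 CPM against 5.94 to 7.11 CPM. VIM, vimentin, stayed within 2-fold, with a log2 difference of -0.19 and 24.4% of its exons overlapped. No single direction along the epithelial to mesenchymal axis described these lists.

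The renal tubule markers PAX8, PAX2, LHX1 and CDH6 stayed within 2-fold, with log2 differences between -0.69 (LHX1) and 0.80 (PAX2). In CDH6 a neighbour overlaps 10.0% of the exons. In the wider list of tubule identity genes 4 of 23 tested members were higher (17.4%) and 5 lower (21.7%), with a median of -0.13. Over all genes the shares were 15.0% and 16.8%. WT1, a transcription factor of kidney development, had 13.3, 13.9 and 15 CPM in the labelled-resistant set and at most 0.114 CPM in A498 parental. POU3F3, a transcription factor of the nephron, had 0.165, 0.572 and 0.723 CPM against 26.7, 27.7 and 29.1 CPM. HNF4A, which drives proximal tubule genes, had 0.272, 0.454 and 0.533 CPM against 3.67, 4.53 and 11.8 CPM, so its highest parental library stood well above the median. MME, the brush border protease neprilysin, had 18.8, 20.1 and 22.5 CPM against 5.09, 5.54 and 7.10 CPM. These 4 markers thus stayed within 2-fold, while WT1 and POU3F3 were near 0 in 1 of the states.

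Of 12 tested oxygen-sensing genes 0 were higher and 2 lower (16.7%, beside 16.8% of all genes), with a median log2 difference of -0.06. HIF1A (chromosome 14, 61695513 to 61748259), the gene of the HIF-1 alpha subunit, was 1 of the 2. It had 8.4, 9 and 9.73 CPM in the labelled-resistant set and 285, 295 and 305 CPM in A498 parental (log2 difference -5.11 ± 0.0289, adjusted p = 3.08e-62). It had 7.92 to 9.24 CPM in the resistant and 8.33 to 10.3 CPM in the parental state of 786-O, so the labelled-resistant libraries lay within the joint range of 786-O. EPAS1, which encodes HIF-2 alpha, had 237, 249 and 256 CPM against 129, 136 and 150.0 CPM, a log2 difference of 0.77 ± 0.0221. VHL had 28.0, 30.3 and 32.0 CPM against 14.6, 17.3 and 19.2 CPM (0.74 ± 0.0333). HIF1A transcript was thus lower in the labelled-resistant set than in A498 parental, and EPAS1 transcript was higher by a smaller difference. EGLN3, a prolyl hydroxylase that marks the alpha subunits, had 31.3, 34.3 and 36.5 CPM against 97.7, 112 and 135 CPM.

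Of 30 targets of hypoxia-inducible factors, 3 (10%) were higher and 5 (16.7%) lower as 2-fold calls, beside 15.0% and 16.8% of all genes. Their median log2 difference was -0.11. LOX, which crosslinks collagen, had 0.381, 0.619 and 0.905 CPM against 14.5, 16.5 and 17.9 CPM. STC2, a secreted glycoprotein, had 25.5, 26.3 and 28.4 CPM against 91.9, 109 and 126 CPM, and CA12, a membrane carbonic anhydrase, 137, 148 and 158 CPM against 447, 469 and 608 CPM. P4HA1, a collagen prolyl hydroxylase, went up, with 102, 107 and 113 CPM against 46.8, 48.4 and 51.0 CPM. CA9, a classic HIF-1 target, had at most 0.05 CPM against 0.783 to 1.88 CPM, but a neighbour overlaps 38.5% of its exons. VEGFA had 188, 205 and 222 CPM against 228, 263 and 281 CPM, a log2 difference of -0.41 that passed the adjusted threshold within 2-fold. SLC2A1, the glucose transporter GLUT1, had a log2 difference of 0.03 (adjusted p = 0.262). VEGFA and SLC2A1 thus stayed within 2-fold. A link between the level of HIF1A transcript and these targets was not tested.

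**Figure D3:**
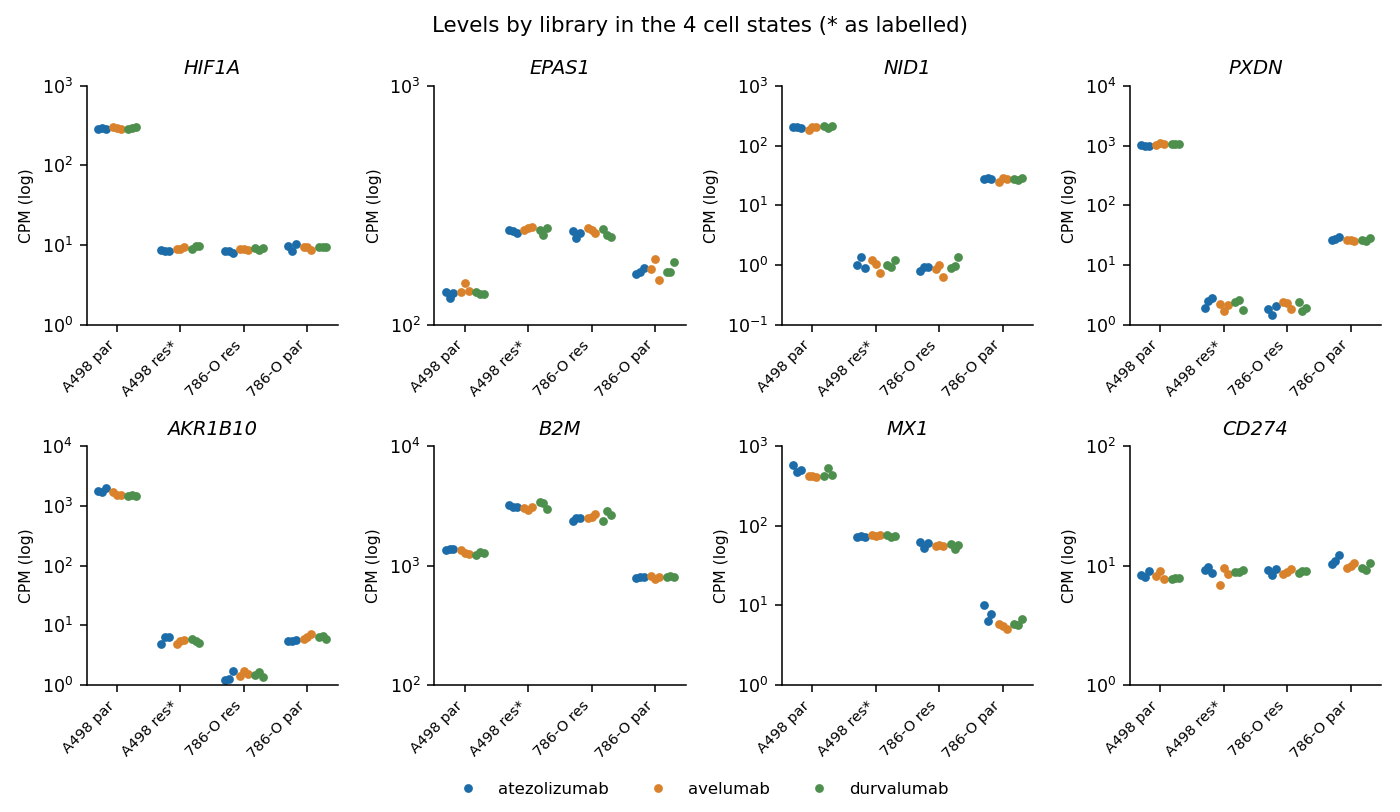
CPM (log axis) of HIF1A, EPAS1, NID1, PXDN, AKR1B10, B2M, MX1 and CD274 in each library of the 4 states, with colour for the antibody. HIF1A lies at 8.4 to 9.73 CPM in the labelled-resistant set and at 285 to 305 CPM in A498 parental, while CD274 overlaps between these states.

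No target of the NRF2 antioxidant programme was higher, and most were lower. NRF2 is a transcription factor that KEAP1 holds down until electrophiles or oxidants release it, after which it binds antioxidant response elements in promoters of glutathione, thioredoxin and NADPH genes. Of 34 tested targets 24 were lower and 0 higher as 2-fold calls, with a median log2 difference of -1.57 beside 0.01 over all genes. At the adjusted threshold alone 33 were lower and 0 higher, and the remaining member was SLC3A2, with a log2 difference of -0.02 (adjusted p = 0.419). To show what the letters of such elements look like in this list, promoters of the RefSeq table on GRCh38.p14 were searched for TGACNNNGC, whose other strand reads GCNNNGTCA. The windows reach from 250 bases before to 50 bases after the start site. The motif was in 8 of the 25 listed promoters that the table holds (32.0%) and in 3702 of 27305 promoters overall (13.6%). A match is a description of letters and not a site of binding. The 4 matches below come from the listed genes with the largest difference that carry the motif, each 5′ to 3′ on the strand of the gene, with the motif in capitals.

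GCLM, chr1:93909431-93909509, minus strand: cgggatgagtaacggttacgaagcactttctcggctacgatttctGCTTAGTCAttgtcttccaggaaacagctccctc
TXNRD1, chr12:104215635-104215734, plus strand: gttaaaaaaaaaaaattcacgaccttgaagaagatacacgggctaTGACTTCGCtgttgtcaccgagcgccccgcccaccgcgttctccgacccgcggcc
CBR1, chr21:36069820-36069919, plus strand: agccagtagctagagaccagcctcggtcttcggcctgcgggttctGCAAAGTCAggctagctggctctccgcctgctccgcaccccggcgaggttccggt
PGD, chr1:10398818-10398917, plus strand: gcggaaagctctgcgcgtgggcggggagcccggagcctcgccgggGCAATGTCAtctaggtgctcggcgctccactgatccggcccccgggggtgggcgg

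GCLM, whose match begins at -34 from the start site, encodes the modifier subunit of the enzyme that limits glutathione synthesis. It had 65.4, 68.9 and 70.6 CPM in the labelled-resistant set and 227, 236 and 244 CPM in A498 parental (log2 difference -1.88 ± 0.0231, adjusted p = 1.49e-48). TXNRD1, thioredoxin reductase, with a match at -99, had 611, 637 and 658 CPM against 1781, 1830 and 1955 CPM (-1.62). CBR1, carbonyl reductase, with a match at -159, had 65.3, 70.7 and 74.1 CPM against 178, 187 and 205 CPM (-1.52), with 18.9% of its exons overlapped. PGD, which makes NADPH in the pentose phosphate pathway, with a match at -201, had 242, 252 and 263 CPM against 434, 473 and 519 CPM (-0.99). All 4 were lower in every labelled-resistant library than in any parental one.

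The largest differences of the list were in aldo-keto reductases, enzymes that reduce reactive carbonyls and steroids. Beside AKR1B10 and AKR1C1, AKR1C2 had 0.311, 0.531 and 1.02 CPM against 268, 309 and 415 CPM, and AKR1C3 had 7.52, 8.19 and 9.45 CPM against 439.8, 491 and 596 CPM. The AKR1C genes are near copies, so the split of reads among them is uncertain, but all 3 were low in the labelled-resistant set. HMOX1, which degrades haem, had 48.8, 51.6 and 54.1 CPM against 497, 566 and 597 CPM. UGDH, which makes UDP-glucuronic acid, fell by 2.65 on the log2 scale, GSR, glutathione reductase, by 1.96 and SLC7A11, the cystine importer, by 1.41. In 786-O the level of HMOX1 was similar, and ranged from 46.8 to 69.5 CPM over the libraries of both 786-O states.

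Among glutathione transferases 2 of 14 tested members were higher and 7 lower, with a median log2 difference of -0.94. GSTP1, already described, was the most abundant gain. GSTM3, a mu-class enzyme, had 7.74, 8.63 and 9.30 CPM against 56.7, 58.8 and 65.0 CPM, and mu-class genes are near copies of each other. Genes of NADPH production moved separately, with 3 of 14 higher (21.4%), 2 lower (14.3%) and a median of -0.08. The shares over all genes were 15.0% and 16.8%. NNT, the mitochondrial transhydrogenase, had 241, 247 and 250.1 CPM against 0.0880, 0.141 and 0.301 CPM. ALDH1L2, a mitochondrial folate enzyme, had 0.311, 0.450 and 0.666 CPM against 67.0, 71.3 and 77.6 CPM. Routes of NADPH supply thus did not share 1 direction.

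Aldehyde and retinoid metabolism had 0 of 16 tested members higher and 9 lower, with a median log2 difference of -1.68. Besides ALDH1A1, which makes retinoic acid, the lower genes included its receptor, carrier, uptake receptor and degrading enzyme. RARB, a retinoic acid receptor, had 0.330, 0.588 and 0.861 CPM against 15.8, 17.0 and 19.7 CPM. CYP26B1, which breaks down retinoic acid, had 0.200, 0.338 and 0.579 CPM against 33.0, 39.9 and 41.6 CPM. CRABP2, an intracellular carrier, fell by 3.57 on the log2 scale and STRA6, the retinol uptake receptor, by 4.26. ALDH2, the main mitochondrial acetaldehyde dehydrogenase, had a log2 difference of 0.02 (adjusted p = 0.921).

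Receptors that sunitinib inhibits were mostly too low to test, with 2 of 9 passing the filter on low counts. PDGFRB, which also belongs to the fibroblast markers, had 5.35, 6.22 and 7.00 CPM in the labelled-resistant set and 0.222, 0.294 and 0.401 CPM in A498 parental (log2 difference 4.23 ± 0.110, adjusted p = 5.75e-35). FLT4, the receptor VEGFR3, was lower, with at most 0.0806 CPM against 0.141 to 0.573 CPM. KDR, FLT1, PDGFRA, KIT, FLT3, CSF1R and RET did not pass the filter. Of 11 tested ligands of these receptors 1 was higher and 5 lower, with a median of -0.70. PDGFA had 14.9, 15.7 and 16.3 CPM against 32.5, 33.7 and 36 CPM, and PDGFB 27.8, 32.4 and 33.6 CPM against 59.3, 61.9 and 66.2 CPM. PGF, placental growth factor, was the ligand that was higher, with 1.11 to 1.40 CPM against 0.167 to 0.522 CPM. PDGFRB was thus higher, while the PDGF chain genes PDGFA and PDGFB were lower.

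Among 24 other receptor tyrosine kinases 8 were higher and 7 lower, with a median of 0.09. AXL, a receptor often studied in drug-tolerant carcinoma, had 727, 761 and 784 CPM against 193, 208 and 219.6 CPM. ROR2, a Wnt5a receptor, had 8.60, 9.30 and 10.0 CPM against at most 0.106 CPM, and IGF1R, the receptor of insulin-like growth factors, 66.8, 72.8 and 78.3 CPM against 20.5, 24.6 and 25.5 CPM. EPHB4, an ephrin receptor, went the other way, with 1.67, 1.73 and 2.20 CPM against 124, 126 and 132 CPM. MST1R, the receptor RON, had 0.157, 0.338 and 0.5 CPM against 15.6, 17.0 and 19.1 CPM. MET and EGFR, both abundant, differed by -0.71 and 0.59 on the log2 scale, within 2-fold. Kinase genes of low or absent expression in 1 state carried the largest differences.

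Of 16 ABC transporters 3 were higher (18.8%, beside 15.0% of all genes) and 6 lower (37.5%, beside 16.8%), with a median of -0.36. ABCG2, an exporter for which sunitinib is a known substrate, had 5.31, 5.97 and 6.51 CPM in the labelled-resistant set and 19.1, 21.2 and 23.2 CPM in A498 parental (log2 difference -1.88 ± 0.0446, adjusted p = 1.24e-36). ABCB1, P-glycoprotein, fell by 0.72 on the log2 scale, within 2-fold. ABCC2, an exporter of conjugates, had 5.07, 5.71 and 7.13 CPM against 185, 213 and 224 CPM. ABCA2, an endolysosomal lipid transporter, was higher, with 274, 294 and 311 CPM against 77.7, 86.6 and 92.2 CPM. ABCB1 and ABCG2, the exporters best known for drug efflux, were both lower in the labelled-resistant set than in A498 parental, ABCB1 within 2-fold. A role of drug export in resistance was not tested.

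Class I antigen presentation had 6 of 20 members higher and 0 lower, with a median log2 difference of 0.56. B2M, the light chain of class I molecules, had 2903, 3102 and 3427 CPM against 1232, 1294 and 1378 CPM (log2 difference 1.18 ± 0.0258, adjusted p = 1.56e-36). HLA-E, a non-classical heavy chain, had 402, 417 and 453 CPM against 155, 162 and 174 CPM, with near copies in the family. TAPBP, which loads peptide onto class I, had 563, 613 and 633 CPM against 216, 236 and 247 CPM, and TAP1, a peptide transporter subunit, rose by 1.18 on the log2 scale. HLA-B and HLA-C stayed within 2-fold, at log2 differences of 0.75 and 0.15. At the adjusted threshold alone 16 of the 20 members were higher and 3 lower, the lower ones being PSMB10 (-0.68) and PSME2 (-0.66), of the immunoproteasome and its activator, and ERAP1 (-0.33), which trims peptides. A neighbour overlaps 34.8% of the exons of PSMB10. Class II genes had 2 of 10 tested members higher and 2 lower (20% each, beside 15.0% and 16.8% of all genes).

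Interferon-responsive genes had 17 of 46 members higher and 2 lower, with a median of 0.60. RSAD2, the antiviral protein viperin, had 144, 156 and 168 CPM in the labelled-resistant set and 12.5, 13.2 and 16.9 CPM in A498 parental (log2 difference 3.41 ± 0.0368, adjusted p = 2.7e-34). MX1 and MX2, neighbouring genes of antiviral GTPases, went in opposite directions. MX1 had 71.8, 74.5 and 76.7 CPM against 411, 435 and 576 CPM, a log2 difference of -2.73 ± 0.0470. MX2 had 71.6, 75.8 and 80.5 CPM against 1.14, 1.70 and 2.46 CPM, a log2 difference of 5.46 ± 0.06. GBP2, a guanylate-binding protein, was the other lower member (-1.48).

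Checkpoint ligands and regulators had 8 of 23 tested members higher and 3 lower, with a median of 0.32. CD274, the gene of PD-L1 and target of the 3 antibodies, had 6.89, 8.92 and 9.75 CPM in the labelled-resistant set and 7.68, 7.95 and 9.03 CPM in A498 parental. Its log2 difference was 0.02 ± 0.0518 (adjusted p = 0.692), with the libraries of both states overlapping. PDCD1LG2, the gene of PD-L2, had 2.62, 3.39 and 3.96 CPM against 0.587, 0.704 and 1.41 CPM. NT5E, which makes immunosuppressive adenosine, had 72.0, 84.5 and 88.8 CPM against 21.6, 24.4 and 28.8 CPM, and ENTPD1, the enzyme before it in that pathway, rose by 1.31 on the log2 scale. VSIR, the checkpoint VISTA, had 10.9, 12 and 13.4 CPM against 33.9, 37.4 and 42.8 CPM. HHLA2, a B7-family ligand, fell by 3.84 on the log2 scale. Ligands of the checkpoint list other than PD-L1 thus differed while PD-L1 transcript did not pass the test.

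NF-kappaB cytokines and feedback genes had 3 of 24 tested members higher and 10 lower, with a median of -0.82. CCL2, a monocyte attractant, had 3.81, 4.57 and 5.33 CPM against 50.1, 55.6 and 69.0 CPM. The neutrophil chemokines CXCL8 and CXCL5 went apart: CXCL8 had 5.40, 5.78 and 7.5 CPM against 29.2, 34.1 and 41.0 CPM, and CXCL5 18, 20.0 and 22.5 CPM against at most 0.196 CPM. Complement had 2 of 17 tested members higher and 10 lower, with a median of -1.05. C1S, a protease of the first complement component, had 7.95, 9.07 and 10.9 CPM against 303, 319 and 362 CPM, and C3, the central component, 56.3, 62.3 and 67.8 CPM against 169, 179 and 187 CPM. For both genes the states did not overlap.

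Sterol and fatty acid synthesis had 12 of 32 members higher and 1 lower, with a median of 0.80. SC5D, a late enzyme of cholesterol synthesis, had 129.5, 137 and 146 CPM against 23, 25.4 and 27.8 CPM. STARD4, a sterol carrier, had 111, 119 and 127 CPM against 24.0, 26.3 and 28.2 CPM. PMVK, a mevalonate pathway kinase, fell by 1.03 on the log2 scale. At the adjusted threshold alone 27 members were higher and 4 lower.

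Glycolysis and the pentose phosphate pathway had 1 of 29 tested members higher (3.45%, beside 15.0% of all genes) and 4 lower (13.8%, beside 16.8%), with a median of -0.49. At the adjusted threshold alone 8 were higher and 19 lower. ENO2, an enolase, was the higher one, with 109, 117 and 125 CPM against 6.08, 7.03 and 7.66 CPM. LDHA, lactate dehydrogenase, had a log2 difference of -0.17. The tricarboxylic acid cycle list had 3 of 30 higher (10%) and 2 lower (6.67%), with a median of 0.26. The 3 higher genes, PDK2, PDK3 and PDK4, encode kinases that switch off pyruvate dehydrogenase. PDK3 had 18.2, 22.2 and 25.4 CPM against 7.57, 8.78 and 10.4 CPM. PDK2 has at least 10% of its exons overlapped by a neighbour. In amino acid and one-carbon metabolism 4 of 34 were higher and 4 lower (11.8% each), with a median of 0.16. PHGDH, the first enzyme of serine synthesis, had 1.10, 1.37 and 2.07 CPM against 309, 334 and 372 CPM (log2 difference -7.93 ± 0.0429, adjusted p = 5.46e-63). GLDC, which breaks down glycine, had 5.59, 6.48 and 7.60 CPM against 0.685, 0.985 and 1.30 CPM. PHGDH was abundant in A498 parental alone: no 786-O library exceeded 1.20 CPM.

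Targets of p53 had 1 of 27 members higher and 11 lower, with a median of -0.63. MDM2, the ubiquitin ligase that p53 induces against itself, had 38.4, 42.9 and 44.4 CPM against 117, 121 and 138 CPM. TP53I3, a quinone oxidoreductase, had 2.82, 3.39 and 4.29 CPM against 57.6, 62.8 and 69.7 CPM, and SPATA18, of mitochondrial quality control, fell by 3.26 on the log2 scale. CDKN1A, the cell cycle inhibitor p21, fell by 0.51, within 2-fold, and TP53INP1 was the member that rose (1.91). Among 14 tested suppressors of renal carcinoma, 1 was higher and 1 lower (7.14% each, beside 15.0% and 16.8% of all genes). ARID1A, a chromatin remodelling subunit, was the higher one (1.03). Cell cycle genes had 2 of 38 tested members higher and 3 lower, with a median of -0.05. MKI67, a proliferation marker, had 494, 546 and 607 CPM against 187, 252 and 279.7 CPM, and CCNE1, cyclin E1, 7.85, 8.75 and 10.3 CPM against 31.2, 32.6 and 34.5 CPM. Shares of the cell cycle list past 2-fold were below those over all genes in both directions.

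Iron and ferroptosis genes had 3 of 21 tested members higher (14.3%, beside 15.0% of all genes) and 5 lower (23.8%, beside 16.8%), with a median of -0.02. GPX4, which reduces lipid peroxides, had 417, 433 and 469 CPM against 154, 165 and 168 CPM. TFR2, a transferrin receptor, had at most 0.163 CPM against 11.3 to 12.8 CPM, while CYBRD1, a ferric reductase, had 8.73 to 11.2 CPM against at most 0.0293 CPM. The insulin-like growth factor system had 4 of 11 tested members higher and 3 lower, with a median of -0.14. IGF2BP2, an RNA-binding protein, had 77.7, 83.2 and 85.2 CPM against 19.9, 21.3 and 23.8 CPM, and IGFBP6, a binding protein of IGF-2, 30.6, 32.5 and 33.5 CPM against 113, 123 and 137 CPM. Metallothioneins had 2 of 6 tested members higher and 1 lower, with a median of -0.17, and near copies make the MT1 values uncertain.

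HOX genes, which record the body position of a lineage, had 5 of 35 tested members higher and 5 lower, with a median of 0.20. Both shares, 14.3% each, were near those over all genes (15.0% and 16.8%). HOXC13 had 0.994, 1.20 and 1.63 CPM against 4.93, 6.21 and 6.85 CPM. HOXA11 fell by 3.39 on the log2 scale, with 31.1% of its exons overlapped. Germline and pluripotency genes had 3 of 9 tested members higher and 4 lower, with a median of 0.91. PRAME, a tumour antigen of the germline, had 35.8, 37.2 and 39.7 CPM against 135, 144 and 149.6 CPM. TDRD9, a helicase of piRNA silencing, had at most 0.163 CPM against 49.6 to 52.8 CPM. ZFP42, a pluripotency marker, had 3 counts over the 9 labelled-resistant libraries and 10150 over the 9 parental ones.

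**Figure D4:**
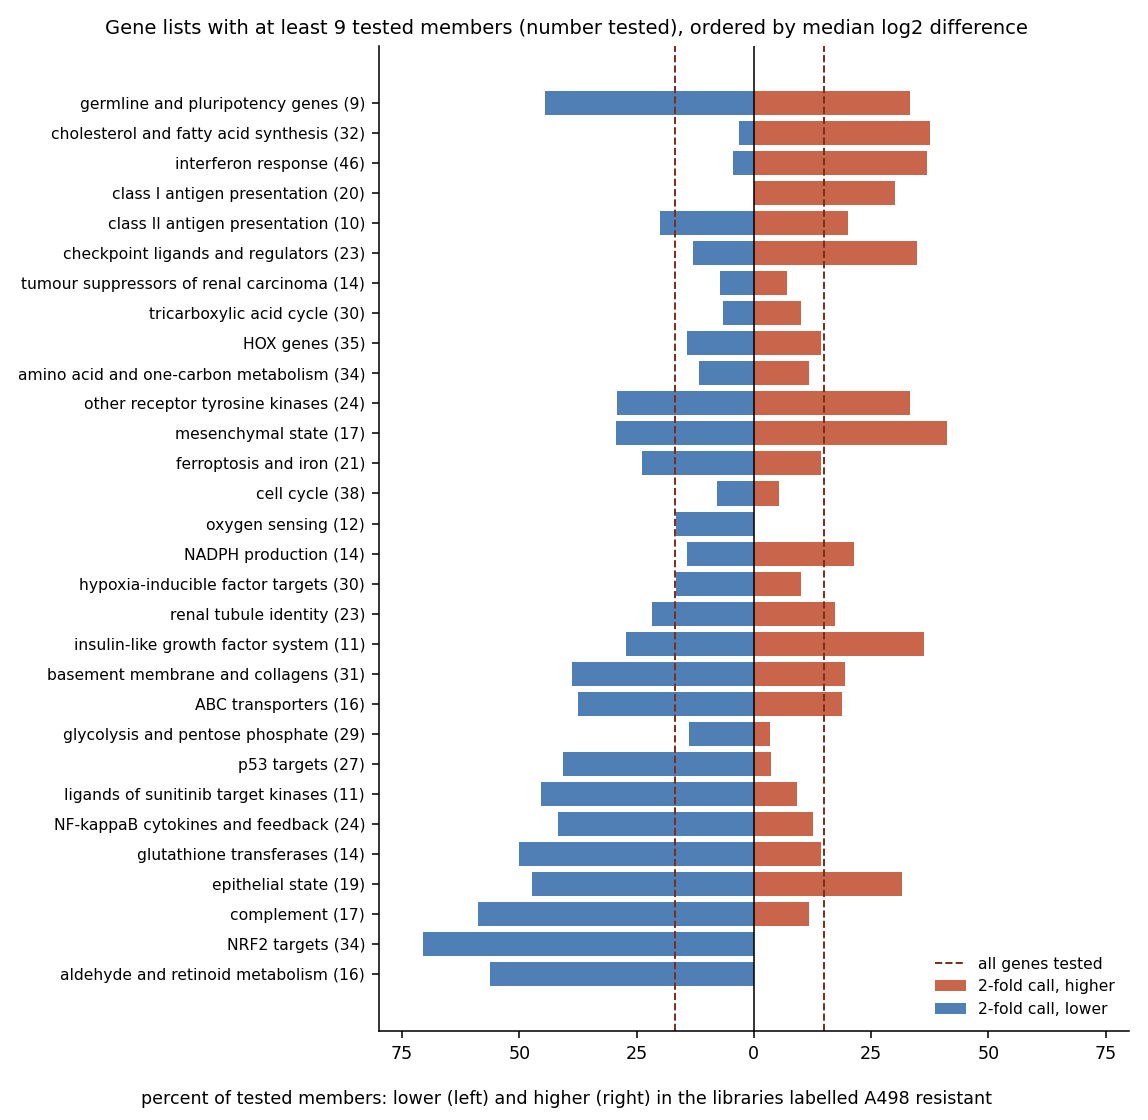
Percent of tested members that were higher (right) and lower (left) as 2-fold calls, for each gene list with at least 9 tested members, with dashed lines at the shares of all genes (15.0% higher, 16.8% lower). NRF2 targets have no higher member and 24 of 34 lower, whereas class I antigen presentation has 6 of 20 higher and none lower.

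Some genes set the labelled-resistant libraries apart from both 786-O states as well as from A498 parental. In the fit of 36 libraries, 183 genes (0.882%) were 2-fold calls higher than all 3 other states, 122 of them protein coding, and 114 (0.549%) were lower than all 3, 50 of them protein coding. With at least 5 CPM in 3 libraries as the filter the counts were 46 and 32, and with no filter 297 and 148. The 3 comparisons behind these counts share the labelled-resistant libraries. CLDN16, a tight junction claudin of the thick ascending limb that lets magnesium through, had 10.9, 12.2 and 12.8 CPM in the labelled-resistant set and at most 0.457 CPM in A498 parental. In 786-O resistant it had 0.491, 0.923 and 1.12 CPM, and in 786-O parental at most 0.163 CPM. The log2 differences were 5.30, 3.75 and 6.97 against A498 parental, 786-O resistant and 786-O parental. CLDN2, a claudin of the proximal tubule, was also apart, with means of 40.6 CPM in the labelled-resistant set and 3.05, 4.89 and 5.58 CPM in the other states. A neighbour overlaps 10.0% of its exons. PDGFRB had 0.514 to 0.711 CPM in 786-O resistant and 0.142 to 0.402 CPM in 786-O parental, all under its lowest labelled-resistant value of 5.35 CPM. It was thus the only tested sunitinib target kinase that was higher than all 3 states.

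UGT2A3, a glucuronosyltransferase, had 9.45, 11.3 and 12.6 CPM in the labelled-resistant set, 1.37 to 2.1 CPM in 786-O resistant, 0.218 to 0.690 CPM in 786-O parental and at most 0.1 CPM in A498 parental. AIF1L, an actin-binding protein, had 33.1, 33.9 and 36.4 CPM against 3.13 to 4.24, 5.02 to 6.83 and 3.54 to 4.83 CPM in A498 parental, 786-O resistant and 786-O parental. FLG was apart too, at 544 to 767 CPM against 97.8 to 153 CPM in 786-O resistant and 67.6 to 131 CPM in 786-O parental, and its antisense gene FLG-AS1 moved with it (93.5 CPM against 1.11, 20.3 and 9.20 CPM on average). Without the strand setting of the counting, the reads of these partners cannot be told apart. IFITM1, an interferon-induced membrane protein, averaged 42.6 CPM against 6.29, 10.6 and 0.196 CPM, with 32.5% of its exons overlapped. Of the listed genes, RSAD2, MX2, LGALS9, STARD4, LUM, DDR2 and ESRP1 were also higher than all 3 states. These genes were chosen for standing apart, so their levels are a description.

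Among the lower genes, CSF2, the gene of the cytokine GM-CSF, had 0.752, 0.939 and 1.61 CPM in the labelled-resistant set. It had 9.60 to 14.5 CPM in A498 parental, 6.61 to 10.6 CPM in 786-O resistant and 8.77 to 19.7 CPM in 786-O parental. CXCL8 had 5.40 to 7.5 CPM against 29.2 to 41.0, 35.0 to 57.1 and 18.3 to 37.4 CPM in the same order of states. CXCL1 and CXCL3, related chemokines, were lower than all 3 states as well. G0S2, an inhibitor of lipolysis, averaged 6.58 CPM against 56.2, 22 and 61.8 CPM. LAMB3 had 54.8 to 65.2 CPM against 189 to 213, 134 to 174 and 188 to 249.5 CPM. ANGPTL4, an inhibitor of lipoprotein lipase and a target of hypoxia-inducible factors, had 3.47 to 5.74 CPM against 15.5 to 25.6, 15.8 to 22.5 and 6.6 to 15.1 CPM. PLK3, a stress-responsive kinase, averaged 7.07 CPM against 20.7, 16.2 and 14.4 CPM. The other 2 of the 8 lowest, TAGLN2P1 and RPS11P5, are processed pseudogenes whose reads may belong to their parent genes. PDGFB and CLDN7 were also lower than all 3 states.

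**Figure D5:**
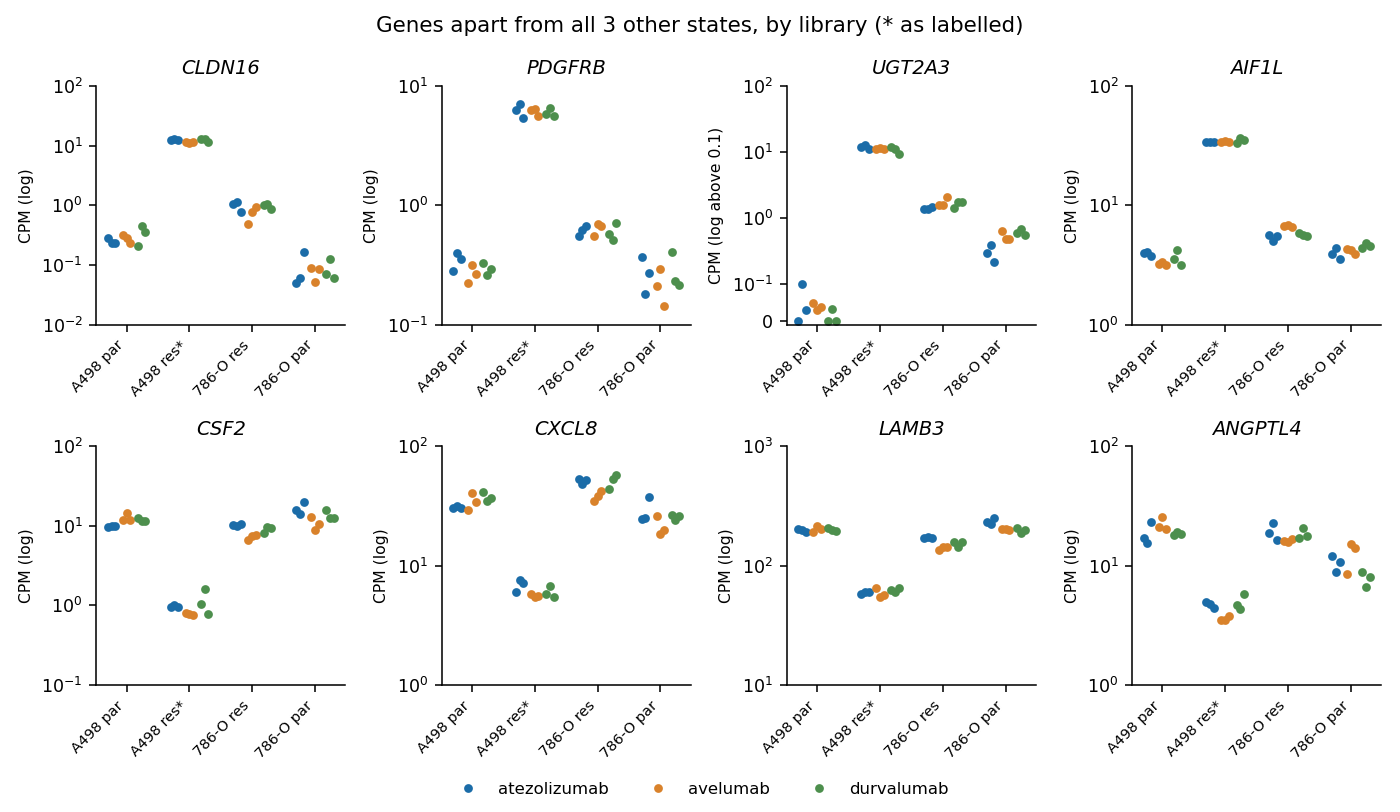
CPM (log axis) of CLDN16, PDGFRB, UGT2A3 and AIF1L, higher than all 3 other states, and of CSF2, CXCL8, LAMB3 and ANGPTL4, lower than all 3, in each library, with colour for the antibody (par, parental; res, resistant). The UGT2A3 axis is linear under 0.1 CPM. In each panel the 9 labelled-resistant libraries do not overlap the other 27, as for CSF2 at 0.752 to 1.61 CPM against a lowest value of 6.61 CPM elsewhere. The genes were chosen for standing apart, so this is a description.

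Whether the difference between the labelled-resistant set and A498 parental depended on the antibody was tested by a quasi-likelihood F test with 2 degrees of freedom. It passed for 173 of 19458 genes (0.889%), and 2485 genes had an unadjusted p under 0.05. Of the 173, 53 were also 2-fold calls, 13 had a range of at least 1 on the log2 scale over the antibodies and 45 changed sign. The count rested on single libraries and is poorly determined. Leaving out replicate 1, 2 or 3 of the labelled-resistant atezolizumab group gave 71, 42 or 99 genes. Without replicate 1 or 3 of the labelled-resistant avelumab group it was 269 or 96, and without replicate 1, 2 or 3 of the labelled-resistant durvalumab group 74, 75 or 408. In A498 parental, the count was 48 without atezolizumab replicate 3, 77 or 283 without avelumab replicate 2 or 3, and 67 without durvalumab replicate 1. Of the 6185 2-fold calls, 3774 had a range of at most 0.5 on the log2 scale over the antibodies.

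LGALS9, the gene of galectin-9, a ligand of the checkpoint receptor TIM-3, had the lowest p (adjusted p = 6.24e-05). Its 3 parental libraries under atezolizumab had 7.60, 5.68 and 7.57 CPM, those under avelumab 4.48, 3.90 and 4.05 CPM, and those under durvalumab 3.69, 4.83 and 3.88 CPM. In the labelled-resistant set it had 31.2, 31.7 and 32.6 CPM under atezolizumab, 33.8, 33.4 and 36.5 CPM under avelumab, and 32.1, 31.7 and 35.6 CPM under durvalumab. The log2 difference was 2.09 under atezolizumab, 2.98 under avelumab and 2.94 under durvalumab, and the parental atezolizumab libraries were the ones that stood higher. CCN2, a matricellular protein, showed a smaller spread of differences, 2.43, 2.04 and 1.85 in the same order (adjusted p = 0.000597). Its parental libraries had 11, 13.5 and 12.4 CPM under atezolizumab, 18.7, 16.9 and 16.7 CPM under avelumab, and 18.8, 17.8 and 16.7 CPM under durvalumab. Here the parental atezolizumab libraries stood lower, and the labelled-resistant ones ranged from 64.9 to 80.7 CPM over the antibodies. PCSK5, a proprotein convertase, had log2 differences of -2.22, -1.71 and -2.06 (adjusted p = 0.000397), and SLC38A2, a neutral amino acid transporter, 0.34, 0.01 and 0.03 (adjusted p = 0.000597). CEP152, a centriole protein, had differences of 0.41, 0.01 and -0.28 (adjusted p = 0.000365), and the pseudogene HERC2P3, whose reads may belong to near copies, -0.67, -1.36 and -1.92 (adjusted p = 0.000597).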

How the data were processed

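The values are raw read counts as the authors deposited them, for 45478 Ensembl identifiers in 36 libraries, with no normalization. Per the submitters' processing notes, reads were handled with HISAT2 2.1.0, featureCounts 1.6.3, Trimmomatic 0.36.6 and bcl2fastq 2.19.0 on GRCh38, and per the labels' protocols the mRNA kit was stranded. Which annotation was counted, and with which strand setting, is not given in the sources used here, so overlaps of at least 10% of the exons with a neighbour on either strand are named beside a gene. Symbols were found for 45283 identifiers and GENCODE 29 coordinates on GRCh38 for 43799.

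The test was that of edgeR 4.0.16, run in R 4.3.3: filterByExpr (count minimum 10, total minimum 15), TMM, robust quasi-likelihood on the means of the 6 groups of state and antibody, and Benjamini-Hochberg adjustment over all genes tested (threshold 0.05). The difference is the mean of the 3 antibody-matched differences, and standard errors come from the F statistic. CPM values are over the raw library totals and are not corrected for gene length. Reads carry no molecular identifiers. Within each group of state and antibody, no library was a copy of another. Libraries of different groups were not compared in this way. The procedure was tested on simulated data.

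The gene lists, the named-gene rule and the comparisons were chosen with earlier results of these data known. For the main comparison the rule takes, among genes with 2-fold calls of 1 sign under each antibody, no overlap and a log2 difference of at least 2, the 12 with the largest gain and the 12 with the largest loss in mean CPM. For lists it takes up to 4 members with the largest log2 difference and at least 5 CPM, plus members needed for their role. For genes apart from the other states it takes the 8 highest and 8 lowest by the smallest of the 3 differences, and for antibody dependence the 6 of lowest p. A search for proteins of AKR1C1 and AKR1C2 could not be made with the tables used here. Alternatives were RLE and upper quartile scaling, DESeq2 1.42.0, other filters, a replicate block, a fit of all 36 libraries, and each library left out in turn. Some genes that the rule takes are not reported here.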

Additional observations from a re-analysis of the deposited data

Results flagged for a closer look

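For 6 genes the difference between the labelled-resistant set and A498 parental was not the same under the 3 antibodies by the test of that dependence, taken as the lowest p-values among 173 genes. The range of the log2 difference over the antibodies was 0.88 for LGALS9, 0.68 for CEP152, 0.50 for PCSK5, 0.33 for SLC38A2, 0.58 for CCN2 and 1.24 for HERC2P3. In all 6 the parental libraries under atezolizumab lay entirely on 1 side of the parental libraries under the other antibodies. The genes were chosen by that test, which favours such a separation, so this is a description. The share of all tested genes with such a separation is not given here. The antibodies of a state share 1 batch label.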

How the results depend on the processing

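Of 3425 values of 137 named genes recomputed under 25 alternative settings, 3423 kept their direction and their side of the threshold. Of these, 6 values, 1 each of 6 genes, moved by more than 1.5-fold, all on leaving out 1 library. The largest shift was 0.98 on the log2 scale, in TDRD9, at -10.68 without the third labelled-resistant durvalumab replicate against -9.70 with it. LUM was at 10.71 without the first parental atezolizumab replicate, CYBRD1 at 9.71 without the third, and GSTM1 and ZFP42 at -11.38 and -11.98 without the third and the first labelled-resistant avelumab replicate. The other 2 were of CD274, whose log2 difference was -0.0016 with upper quartile scaling and -0.0014 without the second avelumab replicate of the labelled-resistant set, and neither passed the threshold. Over all omissions of 1 library the value ran from -0.0014 to 0.055. The filter on low counts moved the 2-fold calls, to 4508 higher and 5132 lower with no filter and to 1454 and 1569 with at least 5 CPM in 3 libraries, since the number of genes tested changed. With RLE scaling there were 2869 higher and 3306 lower calls, with upper quartile scaling 2846 and 3333, with DESeq2 2879 and 3316, and with all 36 libraries 3239 and 3535. Leaving out each library gave 2971 to 3063 higher and 3290 to 3423 lower calls, all above the 2923 and 3262 with every library. These fits tested 19634 to 19954 genes against 19458, so the ranges also hold a change in the genes tested. Genes with an antibody-dependent difference numbered 354 with no filter, 160 with DESeq2 and 42 to 408 with each library left out. Genes higher than all 3 other states numbered 46 with the strict filter and 297 with no filter, and genes lower than all 3 numbered 32 with the strict filter. For these genes, upper quartile scaling, no filter, the replicate block and the omission of libraries were chosen after seeing the data. With stricter limits of 10 and 0.1 CPM, 10 of 28 A498-restricted genes (35.7%) were low in all 9 labelled-resistant libraries and 0 had a mean over 10 CPM.

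Replicate numbers are shared by the groups. The correlations of 9 same-numbered pairs, each of a labelled-resistant and a parental library under 1 antibody, ran from -0.09 to 0.123. Pairs of different number ran from -0.13 to 0.142. Whether same-numbered libraries of 1 state share a culture or day was not examined. The replicate block gave 2923 higher and 3264 lower calls and 136 antibody-dependent genes. State, batch and the doubt about the line cannot be told apart in any of these fits, and at under 1 CPM a few counts decide a value.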

Other observations

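The 2-fold calls of the labelled-resistant set against A498 parental were uneven over chromosomes. On chromosome 6, 25.0% of the 937 tested genes were higher and 10.1% lower, and on chromosome 18, 21.7% of 290 were higher and 9.31% lower. Chromosome 17 was the reverse, with 7.07% of 1217 genes higher and 23.1% lower, and so was chromosome 16, with 6.81% of 955 higher and 19.6% lower. The median log2 difference was 0.42 on chromosome 6, 0.58 on chromosome 18, -0.40 on chromosome 17 and -0.33 on chromosome 16, beside 0.01 over all genes. These values were not tested.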
